A study of Mus musculus with 6 samples.

Results

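Cytokine receptors and the JAK-STAT pathway were described across bone marrow cells of wild-type (WT) and NHD13 mice by RNA sequencing. The 43 genes were taken by symbol from the 17523 rows of the deposited count table. They comprise 30 receptor chains, 4 Janus kinases (JAKs), 5 STAT transcription factors and 4 genes of the SOCS feedback family, and all 43 had a row. The study has 2 groups of 3 libraries each, all from C57BL/6 mice. WT mice carry no fusion gene. NHD13 mice carry the NUP98-HOXD13 fusion, a model of myelodysplastic syndrome, in which blood formation is disturbed. The cells are described by the series as hematopoietic stem cells sorted by FACS. The labels give neither age, sort markers nor the promoter of the transgene, and nothing in them says that the libraries came from separate animals. The p-values therefore measure the spread between these libraries, which may in part be technical. Sex-linked transcripts, given below, differed between libraries of a group, so these were not all repeats of a single sample. Which of them came from separate animals is not stated.

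Cytokine receptors of types I and II have no kinase of their own. Binding of the ligand brings receptor chains together, so that the JAKs bound to their tails phosphorylate each other and the receptor. STAT proteins dock there, are phosphorylated, and enter the nucleus as dimers to activate target genes, among them the SOCS genes, whose products shut the receptor off again. In bone marrow this pathway carries the signals of erythropoietin, of the colony-stimulating factors G-CSF and GM-CSF, of many interleukins and of the interferons. Receptors are grouped by the chain they share: the common beta chain for IL-3, IL-5 and GM-CSF, the common gamma chain for IL-2 and its relatives, and gp130 for IL-6 and its relatives.

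Total counts ran from 12541538 to 14388772 per library, so that 0 counts in a library allows up to 0.208 to 0.239 CPM (counts scaled to the size of each library), at 3 counts and for counting error only. The row named for the fusion held 0 counts in each WT library and 167 to 185 in each NHD13 library. The libraries differed beyond the genotype. In a principal component analysis NHD13 replicate 1 stood apart from its group on the second component, at 28.2 against -9.44 and -14.1. The X-inactivation transcript Xist was at 463 to 1078 CPM in WT, at 2.55 and 1.95 CPM in NHD13 replicates 1 and 2 and at 683 CPM in NHD13 replicate 3. Y-linked genes had counts in every library. They held 0.0194%, 0.0109% and 0.0113% of all counts in WT replicates 1 to 3. In NHD13 replicates 1 to 3 they held 0.0248%, 0.028% and 0.0177%. The labels give no sex. Markers of stem cells, 10 genes in all, summed to 65.7 to 68.1 CPM over the WT libraries, against 52.0, 84.5 and 84.7 CPM in NHD13 replicates 1 to 3. Of 7 tested, 2 were higher and 3 lower. Hlf, Tie1 and Mllt3 were detected at 15.03, 13.1 and 31.0 CPM in WT and at 3.82, 2.39 and 51.7 CPM in NHD13. Procr and Fgd5 were under 1 CPM in every library, while 10 neutrophil genes summed to 33590 to 51970 CPM in WT against 22940 to 31760 CPM in NHD13.

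Of the 40 genes with enough counts to be tested, 16 were lower and 3 were higher in NHD13 than in WT (edgeR quasi-likelihood test, adjusted p under 0.05 over all genes tested). Among the higher calls, Socs2 reached the minimum count only in NHD13, so that it had to differ to be tested. The genes called made up 47.5% of those tested, against 30.3% of all 12013 genes tested. The lower calls made up 40% against 15.3% of all genes, and the higher calls 7.5% against 15.0%. Every NHD13 library lay below every WT library for 17 of the 40 genes, compared with 22.6% of all genes, and above for 3, compared with 23.5%. The median log2 change was -0.34 over the 40 genes and 0.00 over all genes tested. The receptors accounted for most of the lower calls, with 14 of 28 tested receptor genes lower, 1 higher and 13 not past the threshold, while none of the 4 JAK genes was called.

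These counts depended on the libraries. Without NHD13 replicate 1, 25 of the genes were lower and 3 higher, while among all genes 2966 were lower and 3012 higher. Without WT replicate 2 the counts were 11 lower and 2 higher (957 and 828 among all genes). Without NHD13 replicate 2 they were again 11 and 2 (1069 and 760 among all genes). With all libraries 1839 of all genes were lower and 1799 higher, so the calls among all genes shifted along with those of the gene group. Of the 19 genes called, NHD13 replicate 1 was the NHD13 library nearest to WT in 14. When the share of Y-linked counts in each library was added to the fit as a covariate, 2 genes were lower and none was higher (111 higher and 175 lower among all genes). All 19 genes called kept their sign with this covariate, with a median of 88.5% of the log2 change left. Their median standard error went from 0.14 to 0.196. Of the covariate's variance, 57.8% lay between the groups, and its part in the larger standard error was not tested. The 2 genes called in every setting tried were Il6st and Il6ra.

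**Figure D1:**
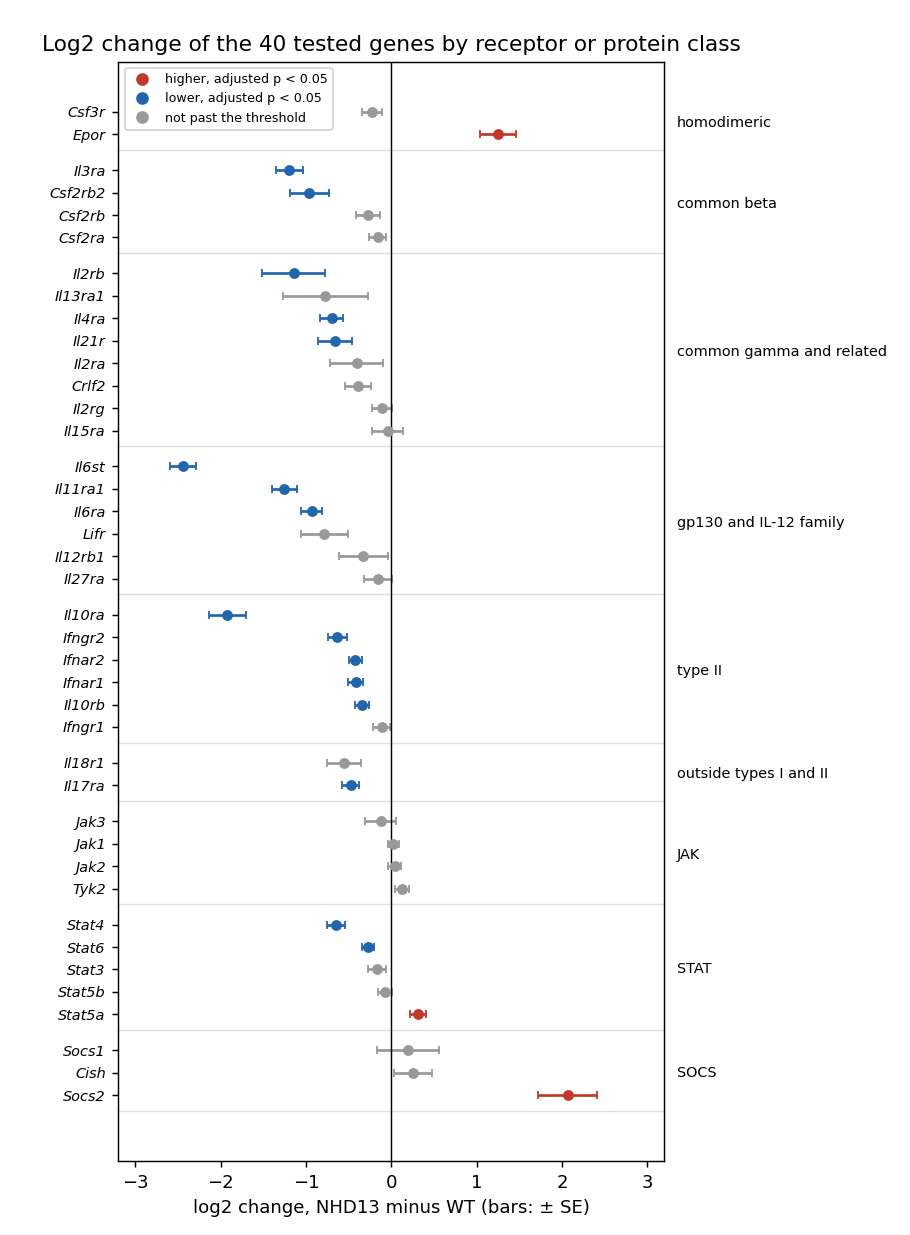
Log2 change of NHD13 minus WT (horizontal axis, bars ± SE) for the 40 tested genes, grouped by receptor or protein class, with 3 libraries per group. Of the 16 lower calls, 14 are receptors and 2 are the STAT genes Stat4 and Stat6, with Il6st at -2.44 and Il10ra at -1.92 farthest to the left, and the 4 JAK genes lie between -0.13 and 0.12.

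Among the genes not tested, Osmr, a receptor chain for oncostatin M, had 0 counts in every library. Counts over the 3 libraries of WT and of NHD13 summed to 4 and 5 for Il9r, the IL-9 receptor, and to 30 and 20 for Socs3. Of the genes tested, Socs2 passed the minimum count only through the NHD13 libraries. Il2ra, Il13ra1 and Socs1 reached it in all 3 WT libraries but in 1, 2 and 2 NHD13 libraries.

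Levels between genes are compared as CPM per kilobase of annotated exon. In WT the most abundant was Ifngr1, the ligand-binding chain of the interferon gamma receptor, at 102 CPM per kilobase ± 3.99 (SD, n = 3). It was followed by Csf3r, the G-CSF receptor of the neutrophil lineage, at 75.4 ± 2.41 and by Csf2ra, the GM-CSF-binding chain, at 56.9 ± 6.01. In NHD13 these 3 genes kept the same order, at 94.9 ± 14.01, 64.5 ± 12.6 and 50.9 ± 5.23. Epor went from the 11th place of the 43 in WT, at 17.6 ± 1.90, to the 4th in NHD13, at 42.0 ± 12.98. In WT its level did not differ beyond the spread from that of Stat3 (17.8 ± 0.585), and in NHD13 not from that of Jak1 (38.1 ± 1.95). Il6st went from the 25th to the 29th place.

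The receptors that act as homodimers went apart. Epor, the erythropoietin receptor on which red cell precursors depend, was at 30.8, 36.3 and 38.1 CPM in WT replicates 1 to 3 and at 53.9, 101.1 and 95.6 CPM in NHD13 replicates 1 to 3. The groups did not overlap, and NHD13 replicate 1 was far below the other NHD13 libraries. Its mean of 35.1 CPM ± 3.79 in WT rose 2.38-fold, to 83.5 CPM ± 25.8 (log2 1.25, SE 0.22, edgeR adjusted p = 0.00469). In the fit with the Y-linked share the log2 change was 1.43 (adjusted p = 0.0704). Summed markers of erythroid cells, for 9 of 10 listed genes with a row, moved with it: they were at 2108 to 2398 CPM in WT and at 2701, 4574 and 4377 CPM in NHD13 replicates 1 to 3. Of 8 tested, 5 were higher and none lower. Their part in the rise of Epor was not tested. In bulk samples a change in the number of cells of a type and a change in RNA per cell cannot be told apart.

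Csf3r was at 262 to 278 CPM in WT and at 285, 208 and 205 CPM in NHD13 replicates 1 to 3. Its NHD13 libraries lay on both sides of WT, and it did not pass (log2 -0.23, SE 0.12, edgeR adjusted p = 0.186). Without NHD13 replicate 1 it was called lower (log2 -0.40, adjusted p = 8.06e-05).

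The proximal promoter of Epor is shown because this receptor moved against the others, and that of Il6st because its fall was the largest of the 40 genes. Both are RefSeq sequences of build GRCm38.p6, the 250 bases before the annotated start, 5′ to 3′ on the strand of the gene. That of Epor lies at chr9:21963577-21963826 on the minus strand, and that of Il6st at chr13:112463820-112464069 on the plus strand. Capitals mark the letters AGATAA, the motif bound by GATA factors, read on either strand.
Epor: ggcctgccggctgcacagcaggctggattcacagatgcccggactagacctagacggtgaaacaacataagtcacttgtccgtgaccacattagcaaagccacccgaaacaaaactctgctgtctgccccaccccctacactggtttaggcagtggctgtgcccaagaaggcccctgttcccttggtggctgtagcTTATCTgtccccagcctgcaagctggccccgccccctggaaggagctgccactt
Il6st: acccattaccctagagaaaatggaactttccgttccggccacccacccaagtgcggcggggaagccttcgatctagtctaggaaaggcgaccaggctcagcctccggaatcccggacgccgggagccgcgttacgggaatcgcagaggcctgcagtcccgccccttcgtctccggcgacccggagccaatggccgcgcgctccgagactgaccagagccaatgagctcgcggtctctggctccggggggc

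The Epor promoter holds 1 such match, 54 bases before the start on the opposite strand, and the Il6st promoter none. Over windows from 250 bases before to 50 after the start, 35 of the 43 genes had 43 promoters in the table. A match to AGATAA was in 3 of these promoters (Epor, Il6ra and Il9r), against 11.2% of all 32851 promoters. The promoters also differed in composition, with 6 CpG pairs and 58.8% G and C in the 250 bases of Epor and 26 CpG pairs and 66% in those of Il6st. A match is a description of letters and not of a bound site.

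In the common beta group the alpha chain of the IL-3 receptor and the mouse-specific IL-3 beta chain fell, while the chains of the GM-CSF receptor were not called. Il3ra, which binds IL-3, a growth factor of early myeloid cells, mast cells and basophils, was at 19.5, 25.5 and 24.0 CPM in WT and at 12.2, 9.53 and 8.50 CPM in NHD13 replicates 1 to 3. All NHD13 libraries lay below WT. Il3ra fell 2.29-fold (log2 -1.20, SE 0.16, edgeR adjusted p = 0.00166). Csf2rb2, a beta chain of the mouse that serves IL-3 alone, was at 10.8, 21.4 and 17.2 CPM in WT and at 8.85, 7.44 and 9.12 CPM in NHD13. The groups did not overlap, though WT replicate 1 lay close to NHD13. Csf2rb2 fell 1.95-fold (log2 -0.96, SE 0.23, adjusted p = 0.016), a call that did not hold when WT replicate 2, WT replicate 3 or NHD13 replicate 2 was left out (adjusted p = 0.0672, 0.0653 and 0.06), and the log2 change was -0.34 in the fit with the Y-linked share.

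The common beta chain itself, Csf2rb, was at 129.0, 161 and 147 CPM in WT and at 149, 105 and 108 CPM in NHD13 replicates 1 to 3. The groups overlapped through NHD13 replicate 1, and the change did not pass (log2 -0.27, SE 0.14, edgeR adjusted p = 0.175). Without that library it was called lower (log2 -0.45, adjusted p = 0.00106). Csf2ra averaged 163 CPM ± 17.3 in WT against 146 CPM ± 15.02 in NHD13 (log2 -0.16, SE 0.10, adjusted p = 0.251) and was called lower without NHD13 replicate 1 as well (adjusted p = 0.0375). The IL-5 receptor alpha chain Il5ra, the eosinophil member of the same receptor group, fell from 5.09 to 2.11 CPM (log2 -1.25, SE 0.27, adjusted p = 0.0098). Markers of mast cells and basophils summed to 464 to 789 CPM in WT against 124 to 182 CPM in NHD13, with 8 of 8 lower, of which Fcer1a and Cd200r3 reached the minimum count only in WT. Those of eosinophils, a list that holds Il5ra, summed to 1075 to 1504 and 126 to 397 CPM, with 6 of 6 tested lower. Their part in the falls of Il3ra, Csf2rb2 and Il5ra was not tested.

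Csf2rb and Csf2rb2 are near copies on chromosome 15, which bears on how reads can be split between them. In the GENCODE vM21 annotation of GRCm38, which is mm10, they lie at 78325752 to 78353847 on the plus strand and at 78282507 to 78305721 on the minus strand. Their coding sequences of 2688 and 2634 bases were identical at 95.2% of aligned bases. The longest identical run spans 242 bases, from position 2083 to 2324 of both coding sequences, and is shown because a read from it fits both genes.
Csf2rb and Csf2rb2: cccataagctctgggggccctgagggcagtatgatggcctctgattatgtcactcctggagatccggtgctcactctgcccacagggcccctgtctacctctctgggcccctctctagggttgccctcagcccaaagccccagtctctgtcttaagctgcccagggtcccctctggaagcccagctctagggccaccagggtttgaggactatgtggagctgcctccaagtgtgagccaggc

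Of all stretches of 50 bases in the transcripts of Csf2rb2, 18.4% also occur in those of Csf2rb, and 12.3% the other way. The counts of Csf2rb2, the less abundant of the pair, are therefore uncertain. The count of Csf2rb2 divided by that of Csf2rb was 0.084, 0.133 and 0.118 in WT and 0.0594, 0.0711 and 0.0841 in NHD13 replicates 1 to 3, with WT replicate 1 inside the range of NHD13 (exact permutation p = 0.2, two-sided, where 3 against 3 cannot give less than 0.1).

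The gp130 group held the largest fall of the 40 genes. Il6st, the gp130 chain through which IL-6, IL-11, LIF, oncostatin M and IL-27 all signal, was at 67.4, 86.0 and 80.5 CPM in WT and at 16.7, 11.3 and 15.2 CPM in NHD13 replicates 1 to 3. Every NHD13 library was under 17 CPM and every WT library was above 67 CPM. Il6st fell 5.42-fold, from 78.0 CPM ± 9.53 to 14.4 CPM ± 2.82 (log2 -2.44, SE 0.15, edgeR adjusted p = 5.53e-05). Its log2 change ran from -2.65 to -2.12 over the 14 other settings and passed in each. In the fit with the Y-linked share its adjusted p was 0.00183.

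Smaller falls were seen in the alpha chains that give gp130 its ligands. Il6ra, which binds IL-6, was at 77.4, 72.2 and 70.7 CPM in WT and at 46.7, 33.9 and 35.0 CPM in NHD13. The groups were well apart, with NHD13 replicate 1 the highest of its group. Il6ra fell 1.91-fold (log2 -0.93, SE 0.12, edgeR adjusted p = 0.00154) and passed in every setting, with an adjusted p of 0.0418 beside the covariate. Il11ra1, which binds IL-11, was at 10.8, 11.2 and 11.6 CPM in WT and at 5.18, 4.10 and 4.84 CPM in NHD13, with no overlap. It fell 2.38-fold (log2 -1.25, SE 0.14, adjusted p = 0.000843), and its adjusted p was 0.0534 with the covariate.

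The counts of Il11ra1 are uncertain. Its annotated span (chromosome 4, 41699989 to 41769474) overlaps 6 other genes, of which Galt on the same strand fell (log2 -0.449) and Ccl27a on the other strand fell (log2 -1.966). In addition, 46.3% of the 50-base stretches of its transcripts also occur in those of Gm13305. Il6st shares no such stretch with another gene and overlaps none (chromosome 13, 112464070 to 112510086).

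The other chains of this family were scarce. Lifr, the LIF receptor, was at 2.21, 3.201 and 3.76 CPM in WT and at 1.80, 2.16 and 1.38 CPM in NHD13. The groups did not overlap, but the change did not pass (log2 -0.79, SE 0.28, edgeR adjusted p = 0.0598), and it was called when either first library, WT or NHD13, was left out (adjusted p = 0.0368 and 0.0482). Il27ra averaged 5.05 CPM ± 0.0795 in WT against 4.51 CPM ± 0.535 in NHD13 (adjusted p = 0.489). Il12rb1, the shared chain of the IL-12 and IL-23 receptors, was at 1.69 CPM ± 0.387 and 1.35 CPM ± 0.289 (adjusted p = 0.406). Of the monocyte and macrophage markers, 7 of 7 tested were lower, with a sum of 1886 to 2174 CPM in WT against 832 to 1295 CPM in NHD13. The neutrophil list had 9 of 10 lower, and the markers of multipotent progenitors 7 of 7, with sums of 652 to 758 CPM in WT against 258 to 402 CPM in NHD13. The part of these cell types in the falls of the gp130 group was not tested.

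**Figure D2:**
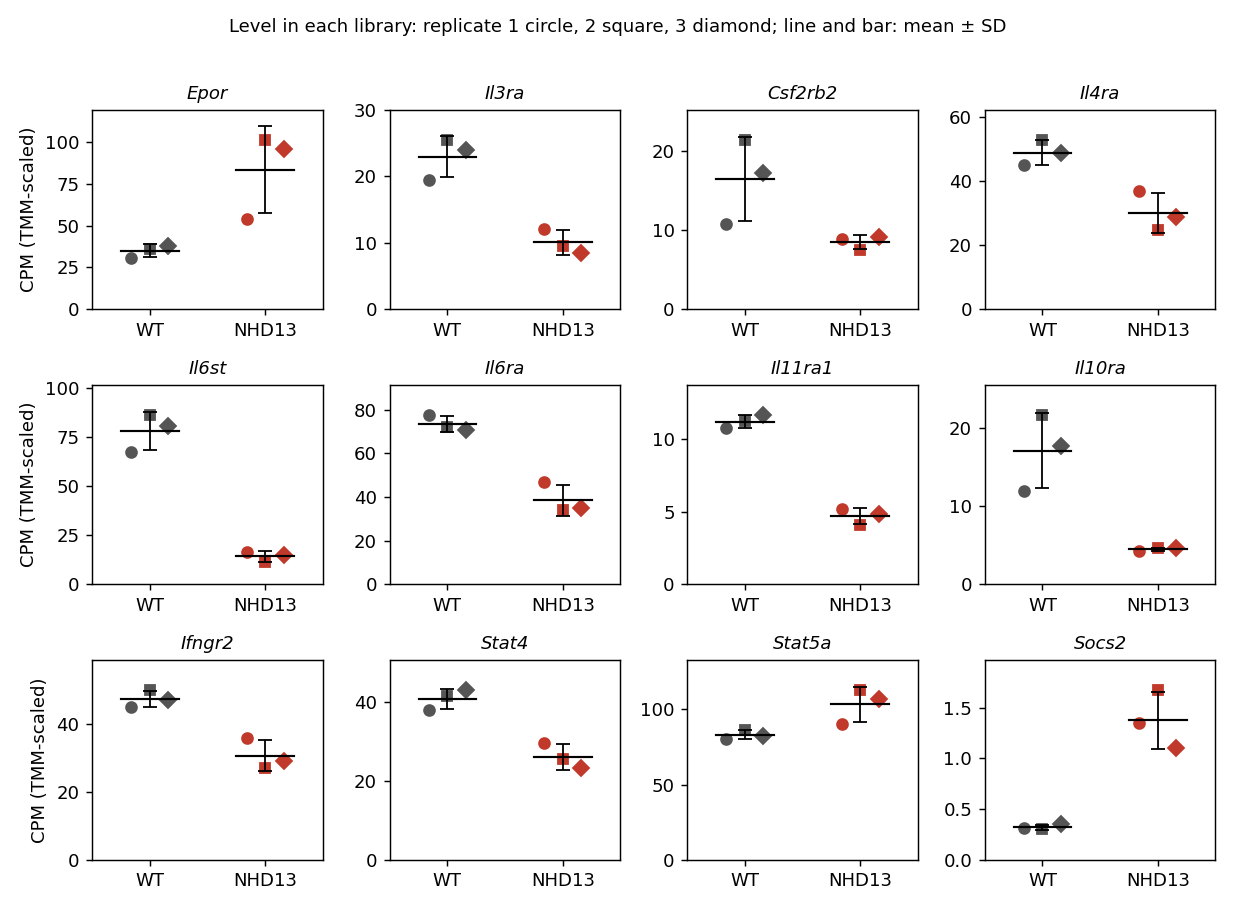
Level of 12 genes in each library (vertical axis, TMM-scaled CPM from 0), with a symbol per replicate and the mean ± SD of 3 libraries as line and bar. Il6st, Il6ra, Il11ra1 and Il10ra are lower in all NHD13 libraries, and Epor is higher, with NHD13 replicate 1 at 53.9 CPM below the other NHD13 libraries.

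In the common gamma group and its relatives 3 of 8 tested genes fell and none rose, against 15.3% lower and 15.0% higher among all genes. Il2rg, the common gamma chain, was at 28.9, 34.4 and 27.7 CPM in WT and at 29.6, 24.97 and 29.9 CPM in NHD13. Its groups overlapped fully, with a log2 change of -0.11 (SE 0.11, edgeR adjusted p = 0.498). Its count is uncertain, as 27.5% of its 50-base stretches also occur in the overlapping gene Gm20489. Il4ra, the IL-4 and IL-13 signalling chain, was at 45.1, 52.8 and 48.6 CPM in WT and at 36.8, 24.6 and 28.8 CPM in NHD13. No NHD13 library reached WT, and Il4ra fell 1.63-fold (log2 -0.70, SE 0.14, adjusted p = 0.00782). Its partner for IL-13, Il13ra1, was near 2 CPM in WT and did not pass (log2 -0.78, SE 0.50, adjusted p = 0.262).

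The receptors of lymphoid cytokines were less certain. Il21r, the IL-21 receptor, was at 25.5, 20.8 and 19.2 CPM in WT and at 18.2, 10.9 and 12.4 CPM in NHD13. The gap between the groups was small, from 18.2 to 19.2 CPM. It fell 1.58-fold (log2 -0.66, SE 0.20, edgeR adjusted p = 0.0339), and the call was lost when any library other than NHD13 replicate 1 was left out (adjusted p from 0.0662 to 0.109). Il2rb, the beta chain for IL-2 and IL-15 in NK and T cells, was at 2.93, 7.59 and 4.32 CPM in WT and at 3, 1.739 and 2.004 CPM in NHD13. The groups overlapped, as NHD13 replicate 1 lay above WT replicate 1. Its fall of 2.21-fold passed narrowly (log2 -1.14, SE 0.37, adjusted p = 0.0465) and did not pass when replicate 2 or 3 of either group was left out (adjusted p = 0.167 and 0.0965 for WT, 0.142 and 0.127 for NHD13). Its log2 change was -0.70 without WT replicate 2.

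The T and NK list, with 10 of 11 genes having a row, summed to 186 to 247 CPM in WT against 127 to 234 CPM in NHD13, mostly from Nkg7. Of 5 tested, 2 were lower, Ncr1 and Klrd1, and both reached the minimum count only in WT, so that they had to differ to be tested. Of its defining markers, the NK receptor gene Ncr1 averaged 1.64 CPM in WT against 0.0482 CPM in NHD13, while the T cell gene Cd3e was at 0.293 and 0.453 CPM. Their part in the fall of Il2rb was not tested. Il15ra, which presents IL-15, averaged 16.3 CPM ± 3.38 in WT against 15.8 CPM ± 2.99 in NHD13 (edgeR adjusted p = 0.88). Il2ra, the high-affinity IL-2 chain, stayed under 1 CPM in every library (adjusted p = 0.37). Crlf2, the TSLP receptor chain, was at 25.4 CPM ± 5.33 and 19.4 CPM ± 2.05 (log2 -0.39, adjusted p = 0.0893), and was called lower when WT replicate 1 or NHD13 replicate 1 was left out (adjusted p = 0.0419 and 0.0356). The IL-7 receptor Il7r, which pairs with either the common gamma chain or Crlf2, fell from 4.38 to 1.11 CPM (log2 -1.97, SE 0.30, adjusted p = 0.00283), beside B cell markers, a list that holds Il7r, at 22.2 to 31.3 CPM in WT against 14.1 to 18.1 CPM in NHD13. Of 4 of them tested, 2 were lower, Il7r and Cd79b.

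Of the type II receptors, 5 of 6 fell, most of them slightly, against 15.3% of all genes lower. All 5 calls were lost in the fit with the Y-linked share. Il10ra, the ligand-binding chain for the anti-inflammatory cytokine IL-10, was at 12.02, 21.7 and 17.8 CPM in WT and at 4.28, 4.66 and 4.63 CPM in NHD13. The NHD13 libraries were close together, and all were under 5 CPM, well below the lowest WT library. Il10ra fell 3.79-fold (log2 -1.92, SE 0.22, edgeR adjusted p = 0.000843), with a log2 change of -1.44 beside the covariate (adjusted p = 0.0534). Its partner Il10rb, which also serves IL-22 and the type III interferons, was at 52.2, 56.6 and 52.0 CPM in WT and at 45.2, 39.9 and 41.5 CPM in NHD13. Here the difference was small but without overlap, at 1.27-fold (log2 -0.34, SE 0.08, adjusted p = 0.0128). Dendritic cell markers, with 7 lower and 1 higher (Zbtb46, 8.61 to 17.5 CPM) of 9 tested, summed to 147 to 220 CPM in WT against 58.3 to 75.1 CPM in NHD13, and Siglech reached the minimum count only in WT. Their part, and that of the monocyte markers given above, in the fall of Il10ra was not tested. The call of Il10rb did not hold when WT replicate 2, NHD13 replicate 2 or NHD13 replicate 3 was left out (adjusted p = 0.0569, 0.058 and 0.0515).

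Both chains of the interferon alpha and beta receptor fell by the same proportion. Ifnar1 was at 78.0, 82.1 and 76.5 CPM in WT and at 65.9, 55.3 and 55.8 CPM in NHD13. Ifnar2 was at 94.9, 101.9 and 101.7 CPM in WT and at 81.0, 69.6 and 72.4 CPM in NHD13. In both genes NHD13 replicate 1 was the highest of its group and still below every WT library. Their falls were 1.34-fold each (log2 -0.42 and SE 0.08 for both, edgeR adjusted p = 0.00833 and 0.00581). Both calls held without each single library and were lost in the fit with the Y-linked share (adjusted p = 0.145 and 0.163).

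The interferon gamma receptor changed in 1 of its 2 chains. Ifngr2, the chain that brings in JAK2, was at 45.1, 49.9 and 47.2 CPM in WT and at 35.8, 26.9 and 29.2 CPM in NHD13, and fell 1.55-fold (log2 -0.63, SE 0.11, edgeR adjusted p = 0.00495). No library of one group entered the range of the other. Ifngr1 was at 303.5, 281 and 291 CPM in WT and at 316, 246 and 248.6 CPM in NHD13. Its highest value was in NHD13 replicate 1, and it did not pass (log2 -0.11, SE 0.10, adjusted p = 0.424). It was called lower without NHD13 replicate 1 (log2 -0.24, adjusted p = 0.00363). The type III interferon chain Ifnlr1 fell from 24.7 to 14.9 CPM (log2 -0.73, SE 0.16, adjusted p = 0.0101). The genes Il10rb, Ifnar2, Ifnar1 and Ifngr2 lie in one stretch of chromosome 16, between 91372783 and 91565623, and Il10rb and Ifnar2 both overlap Gm21970 on the same strand.

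The remaining 2 receptors belong to other families. Il17ra, the shared IL-17 receptor chain, was at 119, 153 and 128 CPM in WT and at 88.4, 96.5 and 102 CPM in NHD13, without overlap. It fell 1.39-fold (log2 -0.48, SE 0.10, edgeR adjusted p = 0.00987), and by -0.28 beside the covariate (adjusted p = 0.288). Il18r1, the IL-18 receptor, was at 9.88, 16.5 and 12.2 CPM in WT and at 9, 9.876 and 7.464 CPM in NHD13. The highest NHD13 library nearly touched the lowest WT library, and the change did not pass (log2 -0.55, SE 0.20, adjusted p = 0.0673), although it was called without WT replicate 1 (adjusted p = 0.0347).

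None of the 4 JAK genes passed the threshold. Jak1, used by gp130, common gamma and type II receptors, was at 265, 278 and 269 CPM in WT and at 259, 285.5 and 281 CPM in NHD13 (log2 0.03, SE 0.06, edgeR adjusted p = 0.784). Jak2, the kinase of Epor and of the common beta chain, was at 128, 134 and 131 CPM in WT and at 122, 142 and 140.0 CPM in NHD13, a log2 change of 0.04 (SE 0.07, adjusted p = 0.716). In both genes the groups overlapped, and their signs turned under upper-quartile scaling, to -0.02 and -0.0041, and without NHD13 replicate 2. Tyk2 was at 83.3 CPM ± 5.93 and 90.7 CPM ± 7.17 (log2 0.12, adjusted p = 0.291).

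Jak3, the kinase bound to the common gamma chain, was at 42.2, 40.9 and 38.4 CPM in WT and at 49.2, 27.0 and 35.3 CPM in NHD13 replicates 1 to 3. Replicate 1 was the highest of all libraries and the other NHD13 libraries were the lowest. It did not pass (log2 -0.13, SE 0.18, edgeR adjusted p = 0.633) and was called lower without NHD13 replicate 1 (log2 -0.38, adjusted p = 0.0124).

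The STAT genes moved in both directions. Stat4, the factor activated by IL-12, was at 38.1, 41.7 and 43.1 CPM in WT and at 29.6, 25.5 and 23.3 CPM in NHD13. The ranges were separate, and Stat4 fell 1.57-fold (log2 -0.65, SE 0.10, edgeR adjusted p = 0.00361). Its transcripts share 21.7% of their 50-base stretches with the overlapping gene Gm28177. Stat6, the factor of IL-4 and IL-13, was at 135, 154 and 147 CPM in WT and at 121, 116 and 123.5 CPM in NHD13, again without overlap. It fell 1.21-fold (log2 -0.28, SE 0.07, adjusted p = 0.0191), and the call did not hold when WT replicate 2, WT replicate 3 or NHD13 replicate 2 was left out (adjusted p = 0.0739, 0.0744 and 0.0753). It overlaps Nab2 on the other strand, which fell too (log2 -1.36).

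Stat5a, one of the paired STAT5 genes that act below Epor and the common beta chain, was at 80.6, 86.5 and 82.3 CPM in WT and at 90.3, 112.7 and 107.1 CPM in NHD13. All NHD13 libraries were above WT, replicate 1 by the least. It rose 1.24-fold (log2 0.31, SE 0.09, edgeR adjusted p = 0.0298). The call was lost under upper-quartile scaling (adjusted p = 0.0501) and when any library other than NHD13 replicate 1 was left out (adjusted p from 0.071 to 0.128). Its neighbour and near copy Stat5b was at 116, 133 and 122 CPM in WT and at 108.5, 118 and 126 CPM in NHD13, with overlap (log2 -0.07, SE 0.08, adjusted p = 0.514).

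Reads may be shared at this locus of chromosome 11. The coding sequences of Stat5a and Stat5b were identical at 90.8% of aligned bases, and 8.21% of the 50-base stretches of Stat5a occur in Stat5b. Stat5a also overlaps Stat3 on the other strand. Stat3, the factor of gp130 and of the G-CSF receptor, was at 169.5 CPM ± 5.57 in WT and at 179.5, 136 and 137 CPM in NHD13 replicates 1 to 3 (log2 -0.17, SE 0.11, edgeR adjusted p = 0.259). It was called lower without NHD13 replicate 1 (log2 -0.31, adjusted p = 0.000734). Stat2 and its interferon partner Irf9, from a separate list, did not pass (adjusted p = 0.879 and 0.0629). Irf9 was called higher without NHD13 replicate 1 (adjusted p = 0.00734), without a filter (0.0466) and with the replicate number as a block (0.0103).

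The feedback genes were near the detection limit. Socs2, the suppressor of growth hormone and related signals, had 4, 4 and 5 counts in WT and 18, 24 and 16 counts in NHD13, or 0.321 CPM ± 0.0256 and 1.38 CPM ± 0.283. The groups did not overlap. It rose 4.19-fold (log2 2.07, SE 0.34, edgeR adjusted p = 0.00409), with no WT library at the minimum count, so that it had to differ to be tested at all. Its log2 change with the covariate was 1.64 (adjusted p = 0.123). Cish, the STAT5 target and inhibitor of Epor and IL-2 signals, was at 2.29, 2.53 and 2.23 CPM in WT and at 3.38, 2.23 and 2.83 CPM in NHD13, with overlap (log2 0.25, SE 0.23, adjusted p = 0.417). Socs1, the inhibitor of interferon signals, was at 1.16 CPM ± 0.152 and 1.33 CPM ± 0.557 (adjusted p = 0.71). Socs3, which binds gp130, averaged 0.739 CPM ± 0.0865 in WT against 0.485 CPM ± 0.366 in NHD13, too low to test.

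The STAT motif TTCNNNGAA, which reads alike on both strands, is shown in the feedback genes because they are classical STAT targets. Capitals mark the matches in 30 bases of RefSeq GRCm38.p6, at chr9:107296654-107296683 on the plus strand for Cish and chr11:117969496-117969525 on the minus strand for Socs3.
Cish: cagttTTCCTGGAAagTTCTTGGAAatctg
Socs3: cagccTTCTTAGAAgggaggggggggaaag

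The matches of Cish begin at bases 1 and 12 of the annotated transcript, and that of Socs3 begins 154 bases before its start. In all, 6 of the 43 promoters of the gene group held the motif (Cish, Socs3, Csf2rb2, Ifnar1, Ifnar2 and Il18r1), against 8.3% of all promoters. Cish was not called, and Socs3 was too low to test. Among the other genes with the motif Csf2rb2, Ifnar1 and Ifnar2 fell and Il18r1 did not pass. Lower calls made up 40% of the 40 genes tested and 15.3% of all genes. The 250 bases of Il6st shown above held no match.

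Ratios of counts between genes within a library do not depend on how libraries are scaled. Gene length cancels between groups, so only the groups are compared. For each of 12 pairs an exact permutation test, two-sided, cannot go below 0.1 with 3 against 3. The Il6st to Il6ra ratio was 0.871, 1.19 and 1.14 in WT and 0.358, 0.333 and 0.435 in NHD13 (exact p = 0.1), so every NHD13 library held less gp130 RNA per IL-6-binding chain than any WT library. Il10ra to Il10rb was 0.318 ± 0.079 in WT and 0.108 ± 0.0116 in NHD13, and Il3ra to Csf2rb was 0.158 ± 0.00614 and 0.0836 ± 0.00659 (exact p = 0.1 for each). In both, the ranges of the groups were apart.

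By contrast the Ifnar2 to Ifnar1 ratio was 1.26 ± 0.0587 in WT and 1.26 ± 0.0345 in NHD13 (exact p = 1), and Csf2ra to Csf2rb was 1.13 ± 0.0873 and 1.23 ± 0.149 (exact p = 0.4). Ifngr2 to Ifngr1 went from 0.163 ± 0.0145 to 0.113 ± 0.00386. Epor to Jak2 was 0.241, 0.271 and 0.290 in WT and 0.442, 0.711 and 0.683 in NHD13, and Stat5a to Stat5b was 0.673 ± 0.0206 and 0.879 ± 0.0653 (exact p = 0.1 for all 3). Adjusted over the 12 pairs, no ratio could pass.

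**Figure D3:**
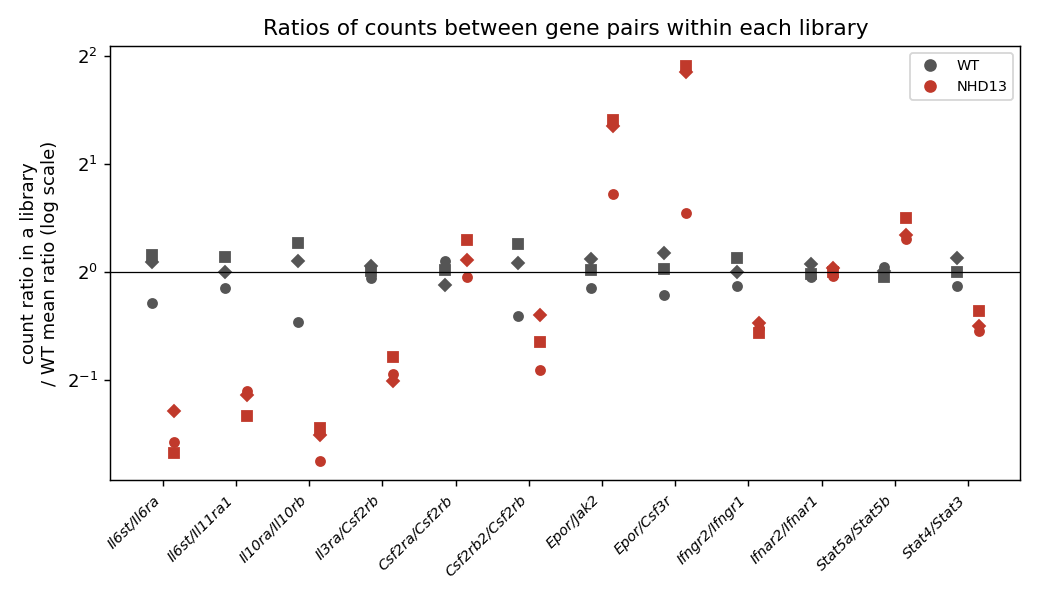
Ratio of counts of 12 gene pairs in each library, divided by the WT mean of that ratio (vertical axis, log scale), with a symbol per replicate. The NHD13 libraries lie below WT for Il6st/Il6ra, Il10ra/Il10rb and Il3ra/Csf2rb, above WT for Epor/Jak2 and Stat5a/Stat5b, while the groups overlap for Ifnar2/Ifnar1 and Csf2ra/Csf2rb.

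Wider lists of the pathway were described beside these genes, to be read against the 30.3% of all genes called, 15.3% lower and 15.0% higher. Every gene of these lists given here as risen or fallen missed the threshold in the fit with the Y-linked share (adjusted p from 0.051 to 0.418). Of 32 cytokine genes listed as ligands, 25 had a row and 8 were tested, of which 6 were lower and none higher, with a median log2 change of -1.12. Tslp, the ligand of Crlf2 and Il7r, fell from 4.19 to 0.783 CPM (log2 -2.41, SE 0.30, edgeR adjusted p = 0.00121). Il12a, a subunit of IL-12, fell from 14.2 to 6.52 CPM (log2 -1.13, adjusted p = 0.00327). Clcf1, a gp130 ligand, fell from 1.49 to 0.379 CPM (adjusted p = 0.00492), with no NHD13 library at the minimum count, so that it had to differ to be tested. Csf1, the macrophage growth factor, fell from 8.29 to 3.57 CPM (adjusted p = 0.00709). It is counted in the 6, though its receptor Csf1r is neither among the 43 genes nor among the further receptors listed. Stromal and endothelial markers summed to 60.6 to 78.8 CPM in WT against 24.5 to 47.3 CPM in NHD13, mostly from Pecam1 (65.5 and 28.1 CPM), the 1 gene of 3 tested that fell. The other 17 ligand genes with a row were too low to test, with 0 counts of Csf2 in all libraries, 1 count of Csf3 in WT and none in NHD13, and 13 and 3 counts of Il6.

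Of 18 further type I and II receptors listed, 15 had a row and 9 were tested, with 4 lower and none higher and a median log2 change of -0.35. Besides Il7r, Il5ra and Ifnlr1, the IL-31 receptor Il31ra fell from 15.5 to 8.08 CPM (log2 -0.94, SE 0.17, edgeR adjusted p = 0.00602), with a log2 change of -0.51 in the fit with the Y-linked share (adjusted p = 0.182). That of Ifnlr1 was -0.47 there (adjusted p = 0.281). The 18 further negative regulators had 3 lower, 1 higher and 14 not past the threshold, with a median of -0.11. The lower calls were near the 15.3% of all genes, and the higher calls were fewer than the 15.0%. The list is short, and its difference from all genes was not tested. Ptprc, the CD45 phosphatase, fell from 346 to 236 CPM (log2 -0.55, adjusted p = 0.00658), and Usp18, which damps interferon receptor signals, rose to 7.03 from 3.94 CPM (log2 0.83, adjusted p = 0.024). The calls of Usp18, of the phosphatase gene Ptpn6 (log2 -0.31, adjusted p = 0.0337) and of Socs5 (log2 -0.71, adjusted p = 0.0388) were each lost without 4 or 5 of the single libraries.

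Of 20 adaptors and relays, 6 were lower and 1 higher, with a median of -0.11. The share called in either direction was near the 30.3% of all genes. By direction it leaned to lower calls, where all genes had 15.3% lower and 15.0% higher. Gab1, a docking protein, rose to 29.1 from 14.1 CPM (log2 1.05, SE 0.21, edgeR adjusted p = 0.00803). Its NHD13 libraries were at 19.7, 33.6 and 34.1 CPM, with replicate 1 lowest, as in Epor. Lyn, a Src kinase of myeloid receptors, fell from 159 to 120.5 CPM (adjusted p = 0.0182), a call that did not hold when replicate 2 or 3 of either group was left out (adjusted p from 0.0596 to 0.0781). Of 15 tested genes known as STAT5 or STAT3 targets, 13 did not pass, with a median of -0.09. Among these were Pim1 at 41.7 and 34.9 CPM, Bcl2l1 at 21.3 and 20.5 CPM and Mcl1 at 191 and 183 CPM. The exceptions were Fos, which fell from 8.77 to 4.03 CPM (log2 -1.12, SE 0.20, adjusted p = 0.00541), and Bcl6, which fell from 21.1 to 13.6 CPM (log2 -0.64, SE 0.14, adjusted p = 0.01).

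**Figure D4:**
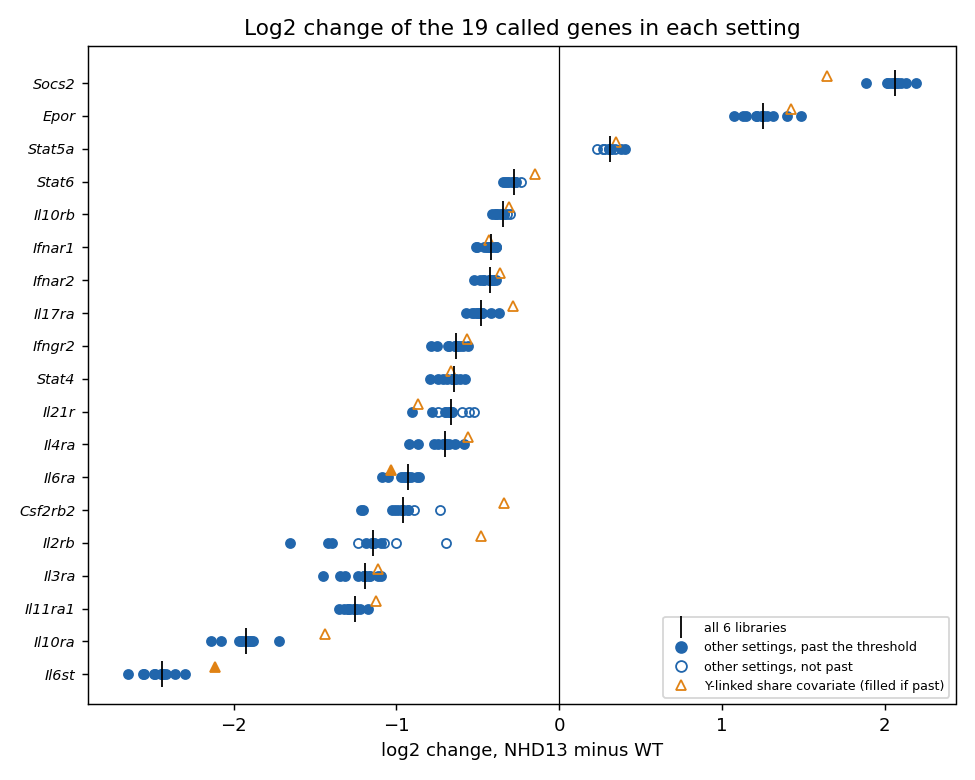
Log2 change of NHD13 minus WT (horizontal axis) of the 19 called genes with all 6 libraries (vertical ticks) and in 14 other settings (symbols, filled where past the threshold). All symbols of a gene lie on one side of 0, those in the fit with the Y-linked share are filled only for Il6st and Il6ra, and Stat5a, Il21r and Il2rb have the most open circles.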

How the data were processed

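RNA was sequenced from 3 WT and 3 NHD13 libraries. The deposited table holds raw counts per gene, not normalised by the authors. The submitters' processing notes name the tools Bowtie2 (2.2.1) and HTSeq (0.5.4p3) and the build mm10. For the annotation, read filters and strand setting, the sources used here give nothing, and reads of genes that overlap on opposite strands cannot be told apart. Columns were matched to samples by group letter and replicate number. The table held 0 rows that name no gene and 0 columns without a sample.

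Counts were tested with edgeR 4.0.16 in R 4.3.3 (filterByExpr with a minimum count of 10, TMM, robust quasi-likelihood F test with the group as the only term). Benjamini-Hochberg adjustment ran over 12013 genes, with a threshold of 0.05. The script was tested on simulated data. CPM are TMM-scaled and given with the SD of 3 libraries. The SE was derived from the log2 change and its F. DESeq2 1.42.0 was an alternative. Members, lists, pairs and settings were chosen with earlier results of these data known. Genes called, their partners and up to 4 genes with the lowest p per wider list are named. Stat2, Pim1, Bcl2l1, Mcl1, Csf2, Csf3, Il6, Xist, the overlapping genes and the single cell type markers fall outside this rule and were chosen after their values were seen. Positions, exon lengths and 50-base matches come from GENCODE vM21, for which 20 of the 43 genes overlap a neighbour, 13 on the opposite strand. Promoters come from RefSeq.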

Additional observations from a re-analysis of the deposited data

How the results depend on the processing

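With DESeq2 size factors, library totals, no filter or the DESeq2 test, 16 of the genes were lower and 3 higher, as in the fit reported, and upper-quartile scaling gave 16 and 2. Leaving out 1 library each gave 11 to 25 lower and 2 to 3 higher genes. Among all genes these fits gave 957 to 2966 lower and 760 to 3012 higher. The count of lower genes was 25 without NHD13 replicate 1 and 25 without the first library of both groups (3245 lower among all genes). In the fit with the Y-linked share it was 2, with 0 higher. Of the 16 lower and 3 higher genes, 11 and 2 were called without each single library. The 2 higher genes were Epor and Socs2, of which Socs2 reached the minimum count only in NHD13. The labels do not say whether the replicate numbers mark a pairing or a batch, and the fit reported did not use them. The deviations of same-numbered libraries correlated at 0.249, 0.0632 and 0.175 (numbers 1 to 3). Those of libraries with different numbers correlated at -0.235 to 0.149. With the replicate block 17 genes were lower and 3 higher, Il18r1 being the one added (edgeR adjusted p = 0.0255). Among all genes 2007 were then higher and 2233 lower, against 1799 and 1839 in the fit reported. The cause of these shifts was not tested. Signs turned only for genes not called. These were Il2rg (0.0617) and Stat5b (0.0628) in the fit with the Y-linked share, Jak1 (-0.0181) and Jak2 (-0.0041) under upper-quartile scaling, and Socs1 (-0.0119) without both first libraries. Over the fits that left out 1 library, the log2 change ran from -0.1949 to 0.1215 for Il15ra, from -0.0149 to 0.0705 for Jak1, from -0.0145 to 0.1094 for Jak2, from -0.375 to 0.048 for Jak3 and from -0.0532 to 0.4943 for Socs1. Depth limits Osmr, Il9r, Socs2 and Socs3, which had between 0 and 58 counts per group.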
